A study of Mus musculus with 37 samples.

Results

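The genes described here are Gfap, Vim, Nes and Synm, 4 of the 21975 genes in the deposited tables. They were chosen by symbol as the genes of the intermediate filament proteins of astrocytes, and all 4 passed the filter on low counts in every fit. The libraries were made from hippocampal astrocytes isolated with beads against ACSA-2, an astrocyte surface antigen, from wild-type mice whose strain is given as CD31 in the labels and as CD1, adult and male, in the methods. Injured mice received a unilateral controlled cortical impact (CCI), an impact by a piston on the exposed cortex at the deeper of the depths used in the study, and sham mice had the surgery alone. Mice were followed by EEG and video and called PTE+ where post-traumatic epilepsy was recorded and PTE- where it was not. All tissue was taken 4 months after injury, and the hippocampus on the side of the impact (ipsilateral) and on the other side (contralateral) gave separate libraries.

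Of sham mice, 5 contralateral and 5 ipsilateral libraries were sequenced, of PTE- mice 10 and 8, and of PTE+ mice 5 and 4. The 37 libraries came from 20 mice, of which 17 gave both sides. Total counts ran from 25371887 to 59846479 per library with a median of 46860387, and the genes with at least 1 count from 9020 to 15545 with a median of 14343. The ipsilateral library of PTE- mouse a8_11 held the fewest genes, and 42.81% of the genes at moderate median counts (500 to 5000) had at most 3 counts in it, against a median of 0.784% over all libraries. The 12 astrocyte markers listed for this check, among them Aldh1l1, Aqp4 and Slc1a3, had counts in all 37 libraries, with summed levels of 6342 TPM (RSEM's level per length, scaled to the library) in the same library and 12670 to 23170 TPM in the others.

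Intermediate filaments are rope-like polymers that give cells mechanical strength. GFAP is the characteristic filament protein of mature astrocytes and the usual stain for reactive astrocytes, which thicken their processes after injury. Vimentin polymerises with GFAP and is also made by ependymal cells, microglia, endothelial cells and fibroblasts, while nestin and synemin join filaments that vimentin or GFAP form, nestin being best known from neural stem cells and reappearing in reactive astrocytes.

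In the GENCODE annotation of GRCm38, Gfap lies on the minus strand of chromosome 11 from 102887336 to 102900912, with up to 9 exons in a transcript. Vim lies on the plus strand of chromosome 2 from 13573927 to 13582826, also with up to 9 exons. Nes lies on the plus strand of chromosome 3 from 87971078 to 87980451 and Synm on the minus strand of chromosome 7 from 67730160 to 67759742, each with up to 5 exons. Exons of Synm share 84 bases with Ttc23 on the other strand, which had a median level of 17.87 CPM (defined below). They share 426 bases with Gm45102, also on the other strand, which is not in the deposited tables. The library kit does not mark strand, so reads of these bases cannot be told apart.

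The proximal promoters were searched for 4 short motifs, since the genes are compared below with their transcriptional regulators. RefSeq windows of GRCm38.p6, from 250 bases before to 50 bases after the start of each gene, were read on both strands. The TATA box (TATAAA) was found in the window of Vim and in 13.62% of all 32851 windows. The STAT motif (TTCNNNGAA) was found at the RefSeq start of Gfap and in 8.298% of windows, and the GC box (GGGCGG) was found at 2 places before Nes and in 35.66% of windows. The AP-1 motif (TGANTCA), present in 7.808% of windows, was in none of the 4, and the window of Synm held none of the motifs. The 30 bases around 3 of the matches are shown to place them, 5′ to 3′ on the strand of the gene, with the match in capitals; that of Nes is the GC box read on the other strand. The windows lie at chr2:13574267-13574296 for Vim, with the match at -32 from the start, at chr11:102897183-102897212 for Gfap, at -2, and at chr3:87971008-87971037 for Nes, at -73. Positions are counted from the RefSeq starts, which for Gfap and Vim lie inside the GENCODE extents given above and not at their outer ends. The stretch of Nes also holds the other GC box, at -62, left in lower case. A match is a description of these letters and not a measured site.
Vim: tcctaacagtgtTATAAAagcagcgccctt
Gfap: atgggggtgcTTCCAGGAAgtcaggggcag
Nes: aaggcctagggaCCGCCCcttttccgcccg

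Gfap was the most abundant of the 4 transcripts per length and Vim the next. The mean level over the 37 libraries was 566 TPM for Gfap, rank 209 of all genes, and 297 TPM for Vim, rank 462. Synm and Nes stood far lower, at 14.8 and 10.8 TPM. Gfap made up a median of 69.2% of the summed TPM of the 4 genes, Vim 27.6%, Synm 1.60% and Nes 1.22%. Vim was above Gfap in 6 of 37 libraries, 3 of them ipsilateral PTE-, and the ratio of Vim to Gfap reached 4.81 in the ipsilateral library of mouse a8_11. Nes was below Synm in 24 of 37 libraries. The counts behind these levels were large for Gfap and Vim, with medians of 36120 and 10880 counts per library, and smaller for Synm (1356) and Nes (1284).

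**Figure D1:**
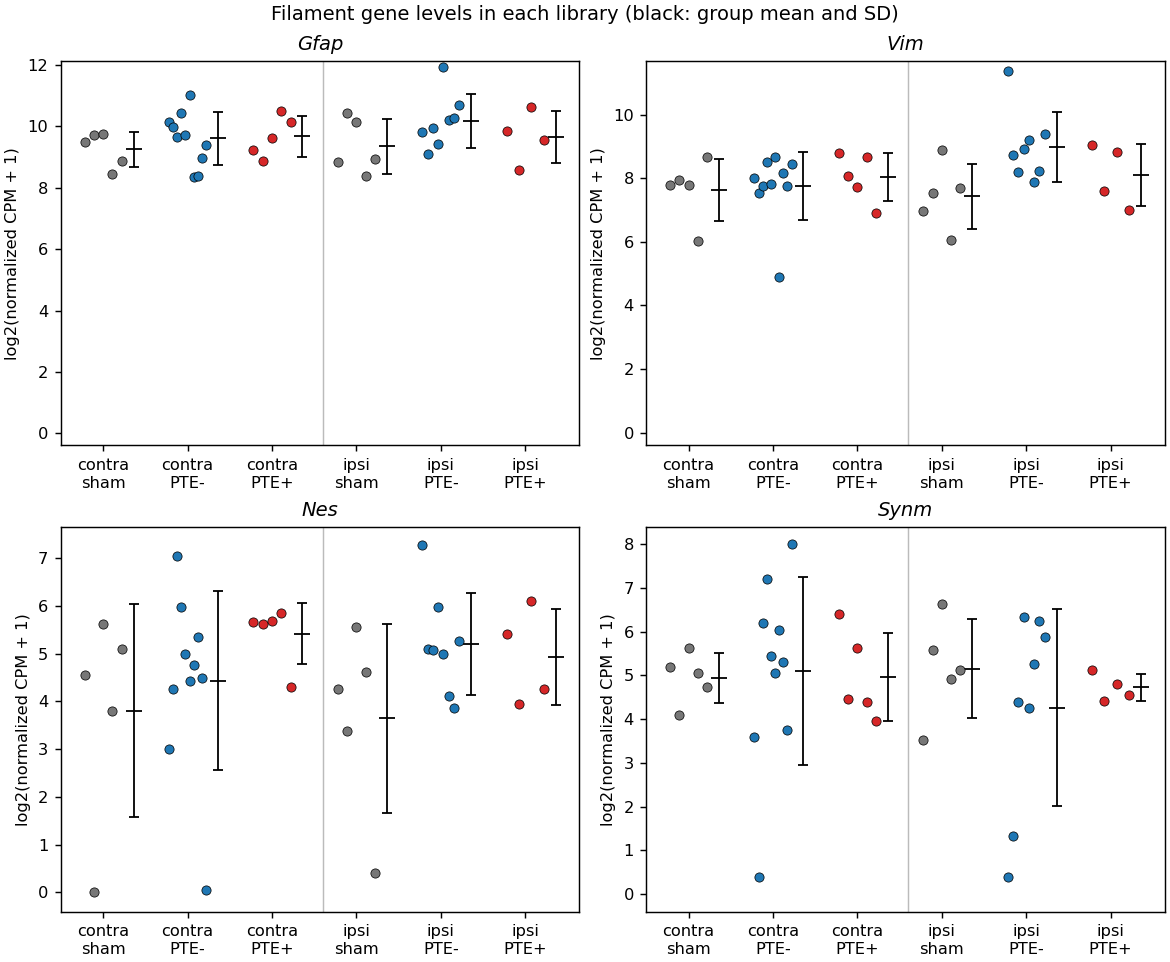
Level of each filament gene in each library as log2(normalized CPM + 1), with a panel per gene, the 6 groups on the horizontal axis, points for libraries and black marks for the group mean and SD. Vim in the ipsilateral PTE- group reaches 11.36 in mouse a8_11, and Nes and Synm each have libraries close to 0.

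For comparisons between libraries of the same gene, normalized CPM was used, which is the count of a gene scaled to library size and by TMM. Differences were tested across all genes with the quasi-likelihood F test of edgeR in 12 comparisons, and no filament gene had an adjusted p under 0.05 in any of the 48 results. At an unadjusted p under 0.05 there were 3 results, all of Vim. DESeq2 and limma on log2(TPM + 1) also gave 0 results past an adjusted p of 0.05 and 3 past an unadjusted one, and limma voom with quality weights gave 0 and 2. Of the voom results, 1 was of Vim and 1 of Gfap, both in ipsilateral PTE- against sham. Over all genes the edgeR threshold was met by 0.00683% (1 gene) in contralateral PTE+ against PTE- and by 0% in the other 11 comparisons, in which 180 to 717 genes had an unadjusted p under 0.05 and DESeq2 gave 19 to 253 genes past its adjusted threshold. Median log2 fold changes over all genes lay between -0.05 and 0.07. The study's methods set criteria on results of DESeq2, and here the same thresholds were applied to the edgeR values. These criteria (a fold change of 1.2 or more with an unadjusted p under 0.05, in genes whose mean TPM exceeded 5 in a group) were met by the same 3 Vim results and by no result of Gfap, Nes or Synm. They are called the methods' criteria below.

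**Figure D2:**
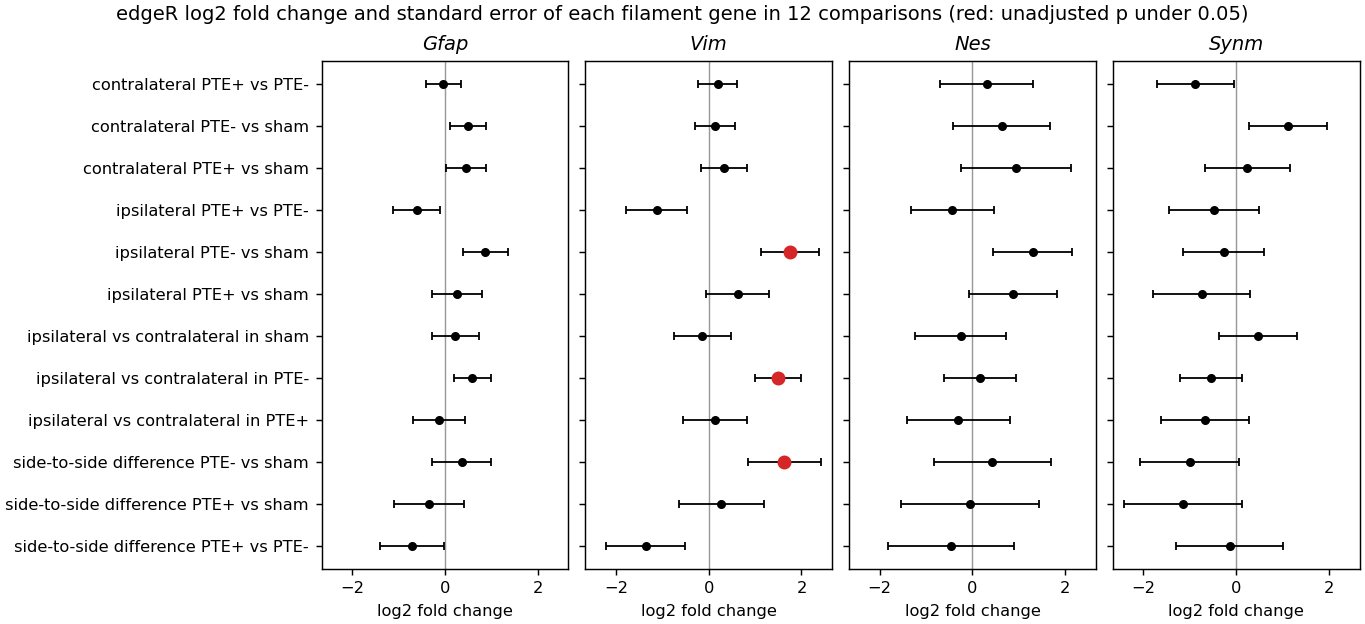
Log2 fold change of each filament gene in the 12 comparisons from edgeR, with a panel per gene, bars for the standard error and red for an unadjusted p under 0.05. The 3 red points are Vim in ipsilateral PTE- against sham (1.75), between the hemispheres of PTE- mice (1.495) and in the side-to-side difference of PTE- against sham (1.63).

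Gfap, the filament gene that marks mature astrocytes, had its highest group mean in the ipsilateral PTE- hippocampus, but the groups overlapped in every comparison. Ipsilateral sham libraries held 331.1, 455.7, 492.2, 1136 and 1393 CPM. In the 8 ipsilateral PTE- libraries the lowest was 544.9, the median 1084 and the highest 3964 CPM, and the 4 ipsilateral PTE+ libraries held 378.3, 757.5, 915.7 and 1603 CPM. The highest PTE- library, mouse a9_13, and the next, a9_16 at 1657 CPM, were the ones above all sham libraries. The group means were 1396 ± 1093 (SD, n = 8) in PTE-, 914 ± 512 (n = 4) in PTE+ and 762 ± 472 CPM (n = 5) in sham. The log2 fold change of PTE- against sham was 0.87 (SE 0.48, unadjusted p 0.0843, adjusted p 0.9999), and it ran from 0.45 without mouse a9_13 to 1.21 (unadjusted p 0.0334) without sham mouse a8_16. Limma voom with quality weights gave an unadjusted p of 0.0270 there, and no setting gave an adjusted p under 0.05. PTE+ against PTE- gave -0.61 (SE 0.51, p 0.248) and PTE+ against sham 0.26 (SE 0.55, p 0.636).

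In the contralateral hippocampus the Gfap groups lay closer together. Contralateral sham libraries held 351.8, 469.7, 721.9, 836.9 and 870.7 CPM. The contralateral PTE+ libraries held 465.3, 596.0, 794.6, 1137 and 1442 CPM, and the 10 PTE- libraries ran from 326.6 through a median of 826.9 to 2107 CPM. The PTE- group spanned the whole of both other groups. The log2 fold changes were 0.49 (SE 0.38, p 0.213) for PTE- against sham, 0.46 (SE 0.43, p 0.305) for PTE+ against sham and -0.04 (SE 0.38, p 0.925) for PTE+ against PTE-.

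Between the hemispheres of the same mouse, Gfap differed in opposite directions among PTE- mice. The labels give each mouse a prefix, a8 or a9, whose meaning is not stated in the sources used here. The ipsilateral level was higher in 4 of 8 PTE- mice, by 0.91, 1.73, 1.86 and 1.90 on the log2(CPM + 1) scale, and all 4 carry the prefix a9. It was lower in the other 4, where the differences were -0.30, -0.30, -0.51 and -0.56, and these were the 3 mice with the prefix a8 and mouse a9_12. The mean difference was 0.59 over the 8 mice (exact sign-flip permutation test, 2-sided p 0.172), -0.46 within a8 (p 0.25, the smallest that 3 mice allow) and 1.22 within a9 (p 0.125 by the exact permutation test). In sham and PTE+ mice the ipsilateral level was higher in 3 of 5 and 2 of 4, and there the signs did not follow the prefix. The sham differences were -0.66 and 0.73 in mice with a8 and -0.09, 0.07 and 0.38 in those with a9. Those of PTE+ mice were 0.62 in the mouse with a8 and -1.07, -0.59 and 0.15 in those with a9. Gfap differences between groups also varied by prefix. The exact permutation difference of contralateral PTE+ from PTE- was -1.01 for a8 (p 0.0667, the smallest possible) and 0.78 for a9 (p 0.262). Contralateral PTE+ from sham gave -0.56 and 1.06, and PTE- from sham 0.45 and 0.28. Ipsilateral PTE- from sham gave -0.02 for a8 and 1.36 for a9 (p 0.0893), and PTE+ from PTE- 0.22 and -0.92.

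Vim, the partner of Gfap in the filament, was the member with the clearest difference: it was higher in the ipsilateral PTE- hippocampus than in sham, than on the other side of the same mice, and by a larger side-to-side difference than in sham. Ipsilateral sham libraries held 65.29, 125.0, 183.4, 204.6 and 470.2 CPM. The 8 ipsilateral PTE- libraries held 236.6, 289.5, 296.7, 422.2, 479.2, 588.9, 670.5 and 2619 CPM. Mouse a8_11 alone stood above 1000 CPM, 4 of the 8 PTE- libraries were above all sham libraries, and the groups overlapped because sham mouse a9_10 was at 470.2. The group means were 700.3 ± 789.9 (SD, n = 8) and 209.7 ± 155.4 CPM (n = 5). The log2 fold change was 1.75 (SE 0.62, unadjusted p 0.0115), which was rank 52 of the 14903 genes tested, and the adjusted p was 0.9999. The methods' criteria were met by 0.986% of those genes and an unadjusted p under 0.05 by 1.58%. An exact permutation test of the means of log2(CPM + 1) gave a difference of 1.56 (2-sided p 0.0187, not adjusted for the 48 such tests made).

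The ipsilateral PTE+ libraries held 126.8, 190.8, 448.3 and 525.2 CPM of Vim, with 2 in the range of the lower sham libraries and 2 among the PTE- libraries. PTE+ did not pass a threshold against either group. On the log2 scale the difference was -1.12 from PTE- (SE 0.66, p 0.104) and 0.62 from sham (SE 0.68, p 0.372). Of all genes tested, 0.503% met the methods' criteria in PTE+ against PTE- and 0.49% in PTE+ against sham. With mouse a8_11 left out, PTE+ against PTE- gave -0.37 (p 0.455).

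On the contralateral side Vim was at similar levels in all 3 groups. Sham libraries held 63.61, 218.2, 220.8, 244.7 and 405.9 CPM, PTE+ libraries 119.1, 210.5, 269.8, 404.9 and 442.5 CPM, and PTE- libraries ran from 28.53 (mouse a9_14) through a median of 240.2 to 401.1 CPM. The ranges of the 3 groups overlapped over nearly their whole length. The log2 fold changes of PTE- against sham, PTE+ against sham and PTE+ against PTE- were 0.13 (SE 0.43), 0.33 (SE 0.49) and 0.19 (SE 0.42), with unadjusted p of 0.759, 0.515 and 0.654. The methods' criteria were met by 0.751%, 0.512% and 1.26% of the 14642 genes tested in these comparisons.

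Within PTE- mice, Vim was higher on the injured side in 7 of 8 mice. The differences of ipsilateral minus contralateral log2(CPM + 1) were 3.34 in a8_11, 3.01 in a9_14, 1.63 in a9_16, 1.1004 in a9_12, 0.96 in a8_14, 0.55 in a9_13, 0.06 in a9_15 and -0.32 in a8_9. Mouse a9_14 stood high because its contralateral level was the lowest of all libraries, and a8_11 because its ipsilateral level was the highest. The exact sign-flip test gave a mean of 1.29 (2-sided p 0.0234, where 8 mice allow 0.00781). In edgeR the log2 fold change was 1.495 (SE 0.49, unadjusted p 0.00471, adjusted p 0.545), rank 127 of 15731 genes, of which 1.75% met the methods' criteria. With the mouse as a replicate block it was 1.26 (SE 0.36, unadjusted p 0.00278, adjusted p 1). The mean differences within the prefixes were 1.33 for a8 and 1.27 for a9 (exact permutation p 0.5 and 0.0625, the latter the smallest that 5 mice allow).

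In sham mice the Vim side-to-side differences were -0.99, -0.82, -0.41, 0.04 and 1.1045, and in PTE+ mice -0.14, 0.09, 0.15 and 0.25. Their means were -0.21 (exact p 0.625) and 0.09 (exact p 0.375), though 5 and 4 mice allow no p below 0.0625 and 0.125. The methods' criteria were met by 0.165% and 0.458% of genes between the hemispheres of sham and PTE+ mice. The difference between the groups was tested directly: the side-to-side difference was larger in PTE- than in sham by 1.63 in edgeR (SE 0.78, unadjusted p 0.0452, adjusted p 0.99996) and by 1.51 in the exact permutation test (p 0.0443). Of all genes 0.795% met the criteria there. PTE+ against PTE- differed by -1.36 (SE 0.84, p 0.115) and PTE+ against sham by 0.27 (SE 0.92, p 0.769), with 0.725% and 0.534% of genes meeting the criteria.

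**Figure D3:**
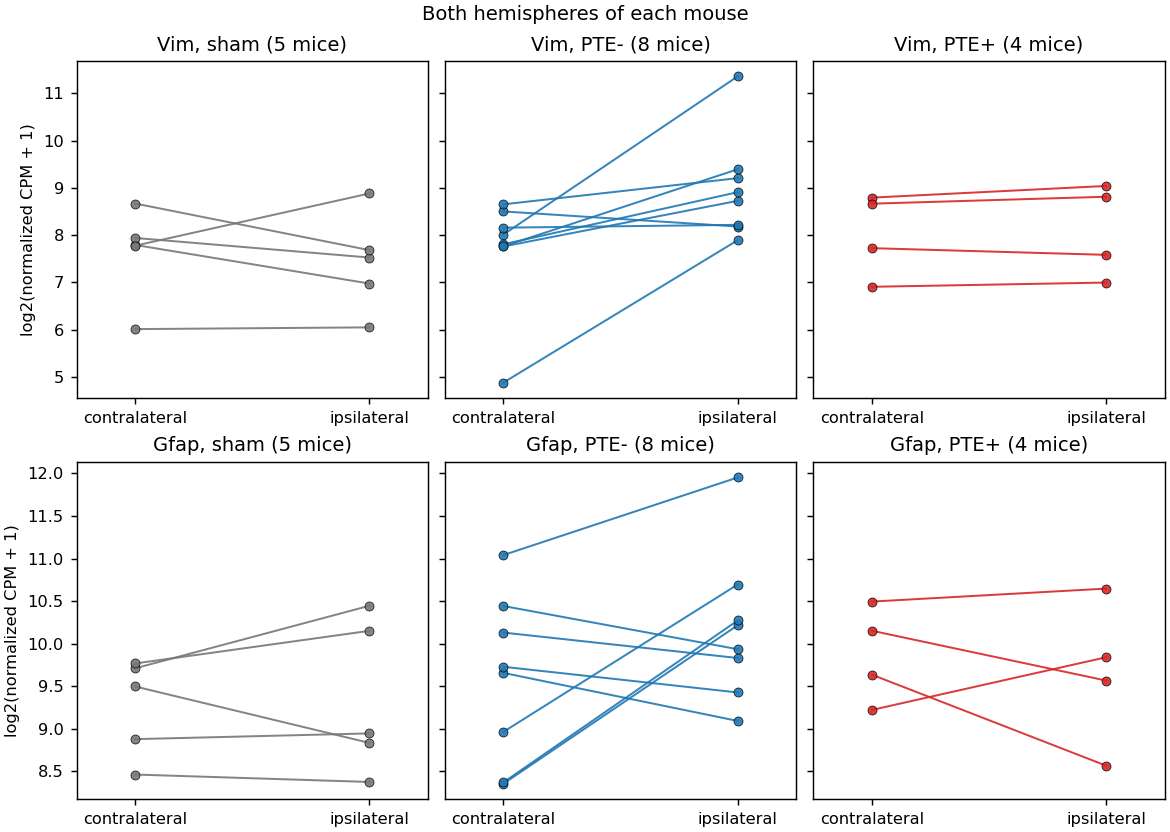
Level of Vim and Gfap as log2(normalized CPM + 1) on the contralateral and ipsilateral side, with a line per mouse for the 17 mice with both libraries, by gene and group. For Vim 7 of 8 PTE- lines run upward to the ipsilateral side, and for Gfap 4 of 8 do.

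The size of the Vim differences depended on mouse a8_11, whose ipsilateral library held the fewest genes. Without this mouse the 3 edgeR values were 1.04 (p 0.0380), 0.82 (p 0.0787) and 0.93 (p 0.190), and the exact permutation tests gave 1.22 (p 0.0240), 0.9994 (p 0.0469) and 1.21 (p 0.0619). Leaving out each mouse in turn, the difference of ipsilateral PTE- from sham kept an unadjusted p under 0.05 in 13 of 13 fits, and the difference between PTE- hemispheres in 7 of 8. For the side-to-side difference against sham it was kept in 7 of 13. The p was above 0.05 there without PTE- mice a8_11, a9_12 or a9_16 and without sham mice a8_15, a8_16 or a9_9. Limma voom with quality weights, which gives aberrant libraries less weight, gave 1.254 (p 0.00981), 0.43 (p 0.247) and 0.76 (p 0.228). Over all settings the adjusted p of Vim ran from 0.772 to 1.0 in ipsilateral PTE- against sham, from 0.0707 (DESeq2) to 1.0 between the PTE- hemispheres and from 0.9995 to 1.0 in the side-to-side difference. With the name prefix as a covariate the 3 values were 1.54 (p 0.0232), 1.41 (p 0.00692) and 1.49 (p 0.0634).

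Markers of ependymal cells and choroid plexus, cells of the ventricle beside the hippocampus, were at higher levels in libraries with more Vim. In bulk libraries a different number of cells of a type and a different amount of RNA per cell cannot be told apart. The list (Foxj1, Ccdc153, Tmem212, Rsph1, Ttr and Folr1) had 6 of 6 genes at a higher level in ipsilateral PTE- than in sham, with a median log2 fold change of 1.56, and 0 of 6 at an unadjusted p under 0.05. By log2 fold change, 6 of 6 were also higher in contralateral PTE- than in sham (median 0.50, with Ttr at an unadjusted p of 0.0114). The same held for 6 of 6 in contralateral PTE+ against sham (median 0.48) and 5 of 6 in ipsilateral PTE+ against sham (median 0.24). The median CPM in contralateral PTE- was, however, below that in sham for Ccdc153, Rsph1 and Folr1, and above it for Foxj1, Tmem212 and Ttr. Its summed level was 521 to 10620 TPM in ipsilateral PTE-, 178 to 2459 TPM in sham and 121 to 2018 TPM in PTE+. PTE- mice a9_12 (10620 TPM) and a8_11 (8695 TPM) stood above the rest of their group, where the next was 1021 TPM. On the contralateral side the summed level was 177 to 3401 TPM, with medians of 758.6 TPM in PTE-, 863.9 TPM in sham and 1025 TPM in PTE+. No marker of the list but Ttr was listed at 0 in more than 2 of the 37 libraries, and Ttr, the transthyretin gene of choroid plexus, was at 0 in 24.

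Over the 37 libraries the Spearman correlation of log2(CPM + 1) of Vim was 0.72 with Foxj1, a regulator of motile cilia, 0.69 with Ccdc153, 0.66 with Rsph1, 0.64 with Tmem212, 0.56 with Folr1 and 0.23 with Ttr. Without the 4 libraries of mice a8_11 and a9_12 the values were, in the same order, 0.70, 0.66, 0.62, 0.59, 0.49 and 0.07. For Nes, Gfap and Synm the correlation with Foxj1 over the 37 libraries was 0.54, 0.41 and 0.31. These are descriptions over libraries that come in part from the same mice. With the summed level of the list as a covariate, the 3 Vim values were 1.16 (SE 0.42, p 0.0141), 0.99 (SE 0.35, p 0.00793) and 1.22 (SE 0.55, p 0.0358). With the median level of the list, which Ttr weighs on less, they were 1.03 (p 0.0268), 1.06 (p 0.00362) and 1.14 (p 0.0432). Without mice a8_11 and a9_12 they were 1.01 (p 0.0555), 0.74 (p 0.152) and 0.88 (p 0.245). These 3 settings were chosen after the data had been seen, and none gave an adjusted p under 0.05.

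**Figure D4:**
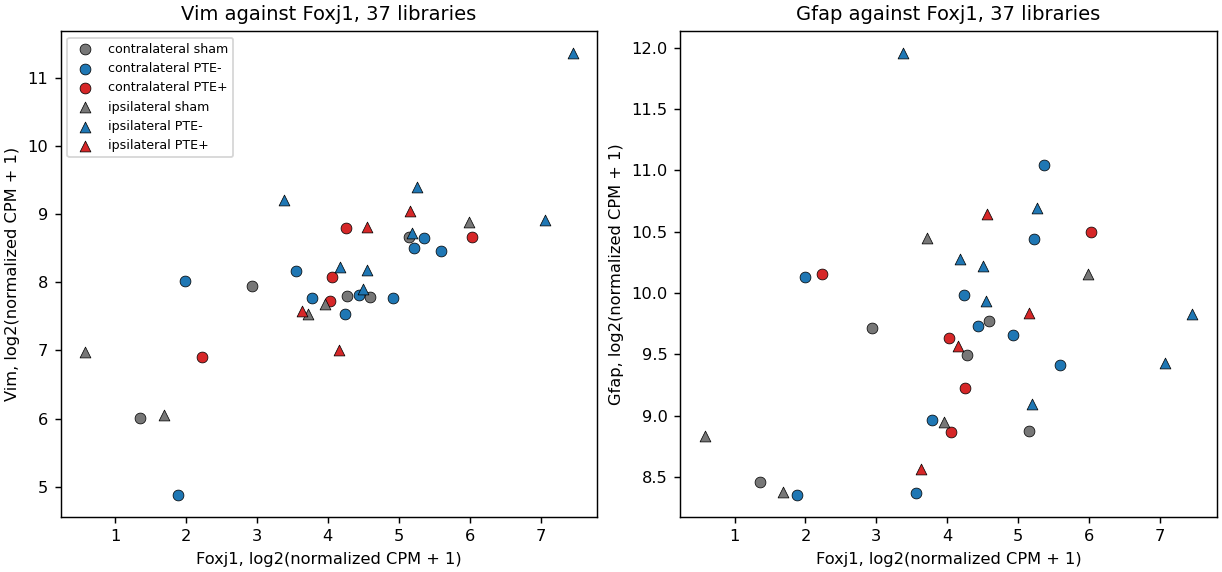
Level of Vim (left) and Gfap (right) against that of the ependymal marker Foxj1, both as log2(normalized CPM + 1), in 37 libraries coloured by group and shaped by hemisphere. Vim follows Foxj1 with a Spearman correlation of 0.72 and Gfap with 0.41; Foxj1 was picked for the plot as the marker of the list with the highest correlation with Vim.

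The summed level of the 12 astrocyte markers was 6342 to 19500 TPM in ipsilateral PTE- and 14890 to 23170 TPM in sham, and 10 of 12 were lower in PTE-, 3 of them at an unadjusted p under 0.05 (Aldh1l1, Glul and Aldoc), with a median of -0.36. In ipsilateral PTE+, where no filament gene passed a threshold, 12 of 12 were lower than in sham, the same 3 at an unadjusted p under 0.05, with a median of -0.34. The correlation of their summed level was -0.63 with Vim, -0.58 with Nes, -0.22 with Synm and -0.11 with Gfap. Single markers ranged in their correlation with Vim from -0.63 for Fgfr3 to 0.46 for S100b, with 0.02 for Sox9 and -0.02 for Slc1a2. For microglia markers it was 0.49 with Gfap and 0.50 with Vim, and 5 of 8 were higher in ipsilateral PTE- than in sham with none at an unadjusted p under 0.05. The summed markers of mural cells and fibroblasts had -0.46 with Gfap, those of endothelial cells 0.42 with Nes and those of neural stem cells and neuroblasts -0.0059 with Nes. In ipsilateral PTE- against sham 7 of 8 oligodendrocyte lineage markers were lower (median -0.81, none at an unadjusted p under 0.05), and 4 of 8 markers of mural cells and fibroblasts were higher (median 0.45), among them Dcn at an unadjusted p of 0.0249. The part of these cell types in the filament gene levels was not tested beyond the covariate settings above.

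**Figure D5:**
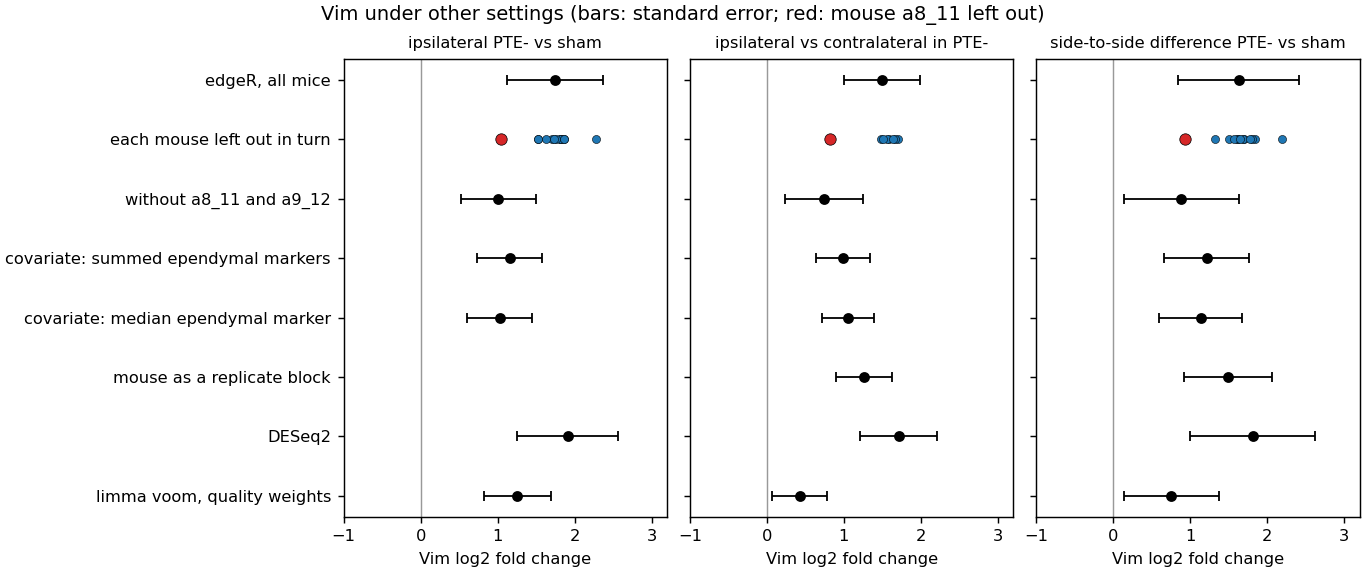
Vim log2 fold change under 8 settings in the 3 comparisons with an unadjusted p under 0.05, with bars for the standard error, blue points for each mouse left out in turn and red for mouse a8_11. All values lie above 0, from 0.43 to 2.28; the replicate block has no value in the left panel, where each mouse gives 1 library.

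Nes, the gene of nestin, had a larger SD of log2(CPM + 1) than both Gfap and Vim in 4 of 6 groups, the exceptions being contralateral PTE+ and ipsilateral PTE-. Ipsilateral sham libraries held 0.3262, 9.415, 18.16, 23.42 and 46.01 CPM, and the 8 PTE- libraries ran from 13.55 through a median of 33.08 to 154.7 CPM, again highest in mouse a8_11. The 4 PTE+ libraries held 14.44, 18.09, 41.77 and 67.62 CPM. The groups overlapped, with 2 of 8 PTE- libraries and 1 of 4 PTE+ libraries above all sham libraries. For PTE- against sham the log2 fold change was 1.298 (SE 0.85, unadjusted p 0.144, adjusted p 0.9999). By exact permutation the difference was 1.57 (p 0.0738). PTE+ against sham gave 0.87 (SE 0.95, p 0.373) and PTE+ against PTE- -0.43 (SE 0.89, p 0.633), the latter 0.17 without mouse a8_11. The lowest sham library, a9_9, rested on 18 counts, and 21.08% of genes at moderate median counts had at most 3 counts in it.

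Contralateral Nes was at 18.67, 48.02, 49.86, 50.11 and 56.4 CPM in PTE+ and at 0, 12.85, 22.39, 33.05 and 47.95 CPM in sham. The PTE- libraries ran from 0.03864, which is 1 count, through a median of 23.8 to 131.6 CPM. The lowest was that of mouse a9_20, in which 22.7% of genes at moderate median counts had at most 3 counts. Of the 5 PTE+ libraries 4 were above all sham libraries and mouse a9_19 was below 3 of them. The exact permutation test of PTE+ against sham gave 1.61 (p 0.0952, where the smallest possible is 0.00794), and edgeR 0.94 (SE 1.18, p 0.435). The count of 0 in sham mouse a8_16 was in a library where 13.17% of genes at moderate median counts had at most 3 counts. Between hemispheres Nes was higher ipsilaterally in 4 of 8 PTE-, 2 of 5 sham and 1 of 4 PTE+ mice, with a mean of 0.20 in PTE- (exact p 0.820) that ran from 4.28 in a8_11 to -1.95 in a8_14.

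Synm, the gene of synemin, had no group apart from the others. Ipsilateral sham libraries held 10.53, 29.27, 33.71, 46.66 and 98.48 CPM and PTE+ libraries 20.44, 22.64, 27.01 and 34.09 CPM. The PTE- libraries ran from 0.3051 through a median of 28.59 to 79.77 CPM, and the lowest, mice a8_11 with 12 counts and a8_14 with 70, were libraries in which 42.81% and 21.01% of genes at moderate median counts had at most 3 counts. Log2 fold changes were -0.27 for PTE- against sham (SE 0.87, p 0.758), -0.75 for PTE+ against sham (SE 1.05, p 0.486) and -0.47 for PTE+ against PTE- (SE 0.96, p 0.629). The exact permutation test of the last gave the opposite sign, 0.47 on the log2(CPM + 1) scale (p 0.752). Within the prefixes the exact permutation difference of PTE- from sham was -2.52 for a8 (p 0.3) and 0.04 for a9 (p 0.946).

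Contralateral Synm ran from 0.3146 (14 counts, mouse a8_13) through a median of 40.51 to 257.1 CPM (mouse a9_20) in PTE-, against 16.04, 25.58, 32.22, 35.89 and 48.29 CPM in sham and 14.62, 20.17, 20.89, 48.25 and 83.81 CPM in PTE+. The PTE- libraries held both the lowest and the highest values. The highest was that of mouse a9_20, with 25371887 total counts, the fewest of all libraries. In it 22.7% of genes at moderate median counts had at most 3 counts. The log2 fold change of PTE- against sham was 1.12 (SE 0.84, p 0.195) and 0.575 without mouse a9_20, while limma voom with quality weights gave -0.77. Between hemispheres Synm was higher ipsilaterally in 3 of 8 PTE- mice, with a mean of -1.06 (exact p 0.258). The 3 PTE- mice with the prefix a8 had -2.80, -3.20 and -4.89, and the 5 with a9 ran from -0.79 to 2.13.

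In the order of the group means of log2(CPM + 1), ipsilateral PTE- stood first for Gfap (10.18) and Vim (8.98), the second for Nes (5.21) and the last for Synm (4.26). No neighbouring groups in the order of any gene differed by more than their pooled SD. For Vim the order ran from ipsilateral PTE- through ipsilateral PTE+ (8.11), contralateral PTE+ (8.03), contralateral PTE- (7.75) and contralateral sham (7.64) to ipsilateral sham (7.42). The SD of a group was 0.57 to 0.90 for Gfap, 0.76 to 1.09 for Vim, 0.63 to 2.23 for Nes and 0.31 to 2.25 for Synm.

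As deviations from group means, none of 12 relations (6 pairs of genes in each hemisphere) had an adjusted permutation p under 0.05, the lowest being 0.412 for Pearson's r and 0.284 for Spearman's rho. Gfap and Vim had r of 0.45 contralaterally (20 libraries, p 0.0686, rho 0.34, p 0.164) and 0.35 ipsilaterally (17 libraries, p 0.200, rho 0.43, p 0.120). The contralateral r was 0.12 without the 2 libraries farthest from the median of Gfap, and 0.12 and 0.48 within the prefixes a8 and a9. Vim and Nes had an ipsilateral r of 0.50 (p 0.0591, rho 0.48, p 0.0761), which was 0.12 without the 2 libraries farthest in Vim, one of them that of mouse a8_11. At an unadjusted permutation p under 0.05 there were 2 relations. Gfap and Synm had an ipsilateral rho of 0.50 (p 0.0397, adjusted 0.284) and r of 0.35 (p 0.214), which was 0.43 without the 2 farthest libraries and 0.69 and 0.09 within a8 and a9. Nes and Synm had a contralateral rho of 0.46 (p 0.0473, adjusted 0.284) and r of 0.05 (p 0.824), which was 0.54 without the 2 farthest libraries and 0.44 and -0.54 within a8 and a9. Between the sides of the same mouse, Vim had r of 0.53 over 17 mice (permutation p 0.0601, adjusted 0.240, rho 0.51, p 0.0561), and 0.32 without the 2 farthest mice.

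The genes most like each member over the 37 libraries, by Spearman correlation among 11130 genes, were different for each. For Gfap they were Gabra2 (0.73), 6330403K07Rik (0.71), C4b (0.67), Tbc1d9b (0.67) and Cep170b (0.67). For Vim they were Tppp3 (0.79), Fam183b (0.79), S100a11 (0.78), Gm19935 (0.77) and 1700007K13Rik (0.77). For Nes they were Cavin1 (0.71), Krt15 (0.69), Dcdc2b (0.65), Mlf1 (0.65) and Spef1 (0.64), and for Synm Plekhg1 (0.64), Il6st (0.61), Chd4 (0.60) and Hif1an (0.60). Il6st, a shared receptor chain of interleukin-6 family signals, is also on the regulator list below. The genes are in each case the highest of a ranking and carry no test.

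The other genes of the filament system were taken from 4 lists, and no listed gene had an adjusted p under 0.05 in any comparison. In ipsilateral PTE- against sham, where 1.58% of all genes had an unadjusted p under 0.05 and the median of all genes was 0.02, 15 of 16 other intermediate filament genes were tested, 9 higher and 6 lower, with a median of 0.58 and 1 gene at an unadjusted p under 0.05. That gene was Krt19, a keratin of epithelia. Its counts were 0, 0, 0, 0 and 4 in ipsilateral sham, 0, 0, 0, 0, 3, 108, 202 and 501 in PTE- and 131, 243, 682 and 795 in PTE+. All 4 PTE+ libraries were above all sham libraries, and 5 of 8 PTE- libraries had at most 3 counts (unadjusted p 0.0193 for PTE- and 0.00751 for PTE+ against sham, adjusted 0.9999 and 1). In PTE+ against sham 1.66% of all genes had an unadjusted p under 0.05. The share of all genes without overlap between those groups was not computed. Nefm, a neurofilament gene of neurons, was at 205.7 CPM in mouse a8_11 and at most 10.01 CPM in the other ipsilateral PTE- and sham libraries (log2 fold change 3.16, SE 1.83, p 0.101). Between the PTE- hemispheres Nefm gave 5.85 (SE 1.80, unadjusted p 0.00269, adjusted p 0.545) and in the side-to-side difference of PTE- against sham 7.01 (SE 2.65, unadjusted p 0.0126). These fitted values rest in part on the 8092 ipsilateral counts of mouse a8_11 and on counts of 0 in 3 contralateral PTE- libraries. Mouse a8_13, the highest contralateral PTE- library at 528 counts, had no ipsilateral library and was outside both fits. Of all genes 4.56% and 3.13% had an unadjusted p under 0.05 in these comparisons. The neuron markers listed were 8 of 8 higher on the ipsilateral side of PTE- mice (median 0.63, none at an unadjusted p under 0.05). The median of all genes between those sides was -0.03. In mouse a8_11, where Nefm was highest, the summed level of the neuron markers went the other way. It was 61.33 TPM ipsilaterally, the lowest of the ipsilateral PTE- libraries, and 166.4 TPM contralaterally.

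Of the linkers, which tie filaments to other structures, 9 were tested, 5 higher and 4 lower in ipsilateral PTE- than in sham, with a median of 0.10 and none at an unadjusted p under 0.05. Plec, the gene of the linker plectin, had 135 ± 60.2 CPM in PTE- and 73.8 ± 57.6 CPM in sham (log2 fold change 0.87, SE 0.68, p 0.215). Ppl, the gene of periplakin, was at most at 3 counts in 3 of 5 sham libraries (2.44, SE 2.05, p 0.249). All 14 genes of filament turnover and modification were tested, 9 higher and 5 lower, with a median of 0.18 and none at an unadjusted p under 0.05. Of the 17 regulators of filament gene transcription, among them Stat3, 8 were higher and 9 lower, with a median of -0.08 and none at an unadjusted p under 0.05. Smad4, the common mediator of TGF-beta and BMP signals, gave -0.60 (SE 0.35, p 0.1003) and Nfib, a factor of glial development, 0.33 (SE 0.26, p 0.224).

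The small heat shock proteins that chaperone filaments, Cryab and Hspb1, were the turnover genes with the lowest p in ipsilateral PTE- against sham. Their comparison of PTE+ with PTE- uses the same PTE- libraries and is not independent of that choice. Cryab was at 61.26 to 89.02 CPM in the 5 ipsilateral sham libraries, at 70.99 to 277.9 CPM in the 8 PTE- libraries and at 35.03, 50.86, 53.96 and 125.5 CPM in PTE+. Of the 4 PTE+ libraries 3 were below all PTE- libraries. Hspb1 was at 16.25 to 457.7 CPM in PTE-, highest in mouse a8_11 as Cryab was, and at 16.71, 35.33, 38.6 and 70.17 CPM in PTE+. In PTE+ against PTE- the log2 fold changes were -0.96 (SE 0.45, unadjusted p 0.0470) for Cryab and -1.83 (SE 0.80, unadjusted p 0.0336) for Hspb1, both with an adjusted p of 0.99999, where 1.75% of all genes had an unadjusted p under 0.05. Against sham, PTE- gave 0.75 (SE 0.41, p 0.0829) and 1.08 (SE 0.70, p 0.141). The values of these chaperones without mouse a8_11 were not computed.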

How the data were processed

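The authors trimmed reads with Trim Galore 0.6.4 and obtained expected counts and TPM per gene with RSEM 1.2.28 and Bowtie2 2.4.1 on mm10. Both tables were deposited by the authors, the expected counts as whole numbers with no normalization and TPM as levels per length scaled to the library. The annotation release is not given in the sources used here. Symbols came from gene identifiers through GENCODE M21. Counts were fitted in R 4.3.3 with edgeR 4.0.16 (filterByExpr, TMM, quasi-likelihood F test, Benjamini-Hochberg adjustment over all genes tested), with the 3 groups of a hemisphere in 1 fit of 14642 (contralateral) or 14903 (ipsilateral) genes. Hemispheres were compared over the 17 mice with both libraries (15731 genes) and again blocking on the mouse (replicate block), since both sides come from the same animal. Exact permutation tests on log2(CPM + 1) went through every assignment of group labels or signs in Python 3.11.15. Scipy 1.17.1 gave the correlations between members and a check of the label test on random numbers. DESeq2 1.42.0 and limma 3.58.1 were alternatives, and the fits were tested on simulated data. The common coefficient of variation in edgeR, the spread between mice relative to the mean, was 1.318 contralaterally and 1.402 ipsilaterally. It was 1.394 in the fit of both hemispheres. With a spread this wide, the lack of an adjusted p under 0.05 does not show that levels were equal. Within a group every library came from a different mouse. The 17 mice with both libraries stand in a contralateral and an ipsilateral group, and the main edgeR fit of hemispheres had no term for the mouse. Named genes were the members, the 5 most alike (a gene of the Synm ranking is not reported here), and the 2 listed genes of lowest p in ipsilateral PTE- against sham; Il6st, the extra heat shock protein values and the single cell type markers named beside their lists were added after values were seen. The members and lists were chosen with earlier results of these data known. Total counts of 25371887 to 59846479 leave sampling error small beside the spread between mice for Gfap and Vim.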

Additional observations from a re-analysis of the deposited data

Results flagged for a closer look

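Among 24 combinations of gene and group tested for a library far from the others, 3 stood out, where chance gives about 1 in 20. Vim in ipsilateral PTE- was highest in mouse a8_11, at 2619 CPM against 670.5 in the next library. Vim in contralateral PTE- was lowest in mouse a9_14, at 28.53 CPM. Nes in contralateral PTE+ was lowest in mouse a9_19, at 18.67 CPM against 48.02 in the next. The side-to-side difference of Vim was larger in PTE- than in sham mice by 1.51 on the log2(CPM + 1) scale in the exact permutation test of group labels (p 0.0443), with means of 1.29 and -0.21; without mouse a8_11 it was 1.21 (p 0.0619).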

How the results depend on the processing

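No filament gene crossed an adjusted p of 0.05 under any setting, and the 3 Vim results kept their direction in all of them. DESeq2 moved the count of genes past an adjusted p of 0.05 in all 12 comparisons, to 23 in contralateral PTE+ against PTE-, 26 in PTE- against sham and 31 in PTE+ against sham, to 63, 19 and 63 in the ipsilateral ones, to 122, 132 and 253 between the hemispheres of sham, PTE- and PTE+ mice, and to 136, 159 and 199 for the side-to-side differences of PTE- against sham, PTE+ against sham and PTE+ against PTE-. The 1 gene of contralateral PTE+ against PTE- became 0 with the prefix as a covariate, limma voom, limma on TPM, either marker covariate or without mice a8_11 and a9_12, and 0 to 1 with each mouse left out; voom gave 2 genes in ipsilateral PTE- against sham and 3 between PTE- hemispheres.

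Values of the members changed sign as follows, and the cause was not tested. With limma on TPM, Gfap gave 0.20 in contralateral PTE+ against PTE- and -0.0398 between sham hemispheres, and Synm 0.34 in ipsilateral PTE+ against PTE- and 0.26 in the side-to-side difference of PTE+ against PTE-. With limma voom, contralateral PTE+ against PTE- gave -0.27 for Vim and 0.48 for Synm, contralateral PTE- against sham -0.0445 for Nes and -0.77 for Synm, and PTE+ against sham -0.29 for Synm. There Synm also gave 0.17 in ipsilateral PTE- against sham, -0.23 and 0.20 between sham and PTE- hemispheres and 0.43 in the side-to-side difference of PTE- against sham, Gfap -0.018 between sham hemispheres and Vim 0.0382 in the side-to-side difference of PTE+ against PTE-. The replicate block gave 0.18 for Nes between sham hemispheres, -0.13 for Nes in the side-to-side difference of PTE- against sham and 0.79 for Synm in that of PTE+ against PTE-, and changed no call; the Vim values with it were 1.26 and 1.49 (p 0.0176).

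With the summed marker covariate, Gfap in contralateral PTE+ against PTE- was 0.0017, Vim in contralateral PTE- against sham -0.0861, Nes 0.0396 in ipsilateral PTE+ against PTE-, -0.43 between PTE- hemispheres, and -0.38 and 0.10 in the side-to-side differences of PTE- against sham and PTE+ against PTE-, and Synm 0.0674 in the latter. With the median marker covariate the same were 0.0195, -0.15, 0.025, -0.43, -0.47, 0.11 and 0.0105, and Nes between sham hemispheres was 0.0393. Without mice a8_11 and a9_12, Nes gave 0.41 in ipsilateral PTE+ against PTE-, -0.87 between PTE- hemispheres, and -0.59 and 0.58 in the side-to-side differences, and Synm 0.15 in that of PTE+ against PTE-. The exact permutation differences without mouse a8_11 were 0.0167 (Nes) and -0.0814 (Synm) in ipsilateral PTE+ against PTE-, -0.38 for Nes between PTE- hemispheres and -0.21 for Nes in the side-to-side difference of PTE- against sham. That of Vim in the same side-to-side difference kept its sign at 1.21 (p 0.0619) but was no longer at a p under 0.05. With a pseudocount of 0.1 they were 0.16 for Nes between sham hemispheres and 0.025 and -0.0003 for Synm in contralateral PTE+ against PTE- and PTE- against sham. On TPM the contralateral r of Nes and Synm was -0.0051.

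With each mouse left out in turn, the ranges that crossed 0 were -0.30 to 0.20 (Gfap, contralateral PTE+ against PTE-), -0.11 to 0.44 (Vim, contralateral PTE- against sham), -0.27 to 0.45 (Synm, contralateral PTE+ against sham), -0.94 to 0.17 (Nes, ipsilateral PTE+ against PTE-), -0.55 to 0.27 (Synm, ipsilateral PTE- against sham) and -0.15 to 0.65 (Gfap, ipsilateral PTE+ against sham). Between hemispheres they were -0.69 to 0.17 and -0.485 to 0.22 for Vim and Nes in sham, -0.53 to 0.77 for Nes in PTE-, and -0.31 to 0.0485 and -0.66 to 0.0376 for Gfap and Nes in PTE+. For side-to-side differences they were -0.27 to 1.01 (Nes, PTE- against sham), -0.041 to 0.83 and -0.52 to 0.28 (Vim and Nes, PTE+ against sham), and -1.07 to 0.26 and -0.65 to 0.29 (Nes and Synm, PTE+ against PTE-). Vim ran from 1.04 to 2.28, 0.82 to 1.71 and 0.93 to 2.19 in its 3 comparisons. Low counts limit Nes and Synm, which had at most 100 counts in 3 libraries each.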
